A study of Heterocephalus glaber with 23 samples.

Results

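The livers of breeding queens were compared with those of breeding consorts in the naked mole-rat (NMR), a long-lived rodent in which reproduction is kept to a queen and very few males of a colony. The comparison takes the 6 libraries whose titles mark breeding females and the 6 whose titles mark breeding males, which are 12 of the 23 NMR liver libraries of the study. All 12306 of 16339 genes that passed a filter on low counts were tested, and autosomal liver functions are described below in most detail. Of the genes tested, 398 are in a hand-written list of genes on the human X chromosome and 11908 are not in it. The chromosome of each gene in the NMR was not analysed here, so the human map stands in for it.

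Female breeders were 3.3 to 3.7 years old and male breeders 2.8 to 4.1 years old. Both came from long-established colonies, had lived there as non-breeders, and became breeders by being paired with an unrelated animal of the other sex. No drug, diet or gene modification was applied, and the labels give no strain. The other 11 libraries are of 5 female non-breeders (2.4 to 4 years) and 6 male non-breeders (2.7 to 4.1 years), litter siblings that stayed workers. They share the estimate of the spread and give the sex difference of non-breeders beside that of breeders. Some limits of the groups come from the design. By the study's methods, the consorts were taken within days after a birth and the queens weeks after their last pregnancy, so time since the last birth and sex cannot be told apart in breeders. Each title carries its own animal number and the libraries were treated as separate animals, while their litters and colonies are not in the labels.

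The liver makes most proteins of blood plasma, stores and releases glucose, builds and clears lipoproteins, turns cholesterol into bile acids and inactivates steroids and foreign compounds. In mice and rats many of these functions differ strongly between the sexes, in large part because growth hormone is secreted in a different rhythm in females and males and acts on hepatocytes through the transcription factor STAT5B. Estrogens, acting through the receptor ESR1, also alter the plasma proteins and lipoproteins made by the mammalian liver, and pregnancy alters them further.

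Library totals lay between 11826665 and 16969851 counts in female breeders and between 13364037 and 17729410 in male breeders, a difference within the spread of the groups (two-sided exact permutation test, p = 0.134, adjusted p = 0.474 over 6 library measures). Albumin took 11.4% ± 2.41 of the counts in queens and 11.95% ± 1.41 in consorts (SD, n = 6 in each). All 11 hepatocyte markers were detected in every library, and their summed level was 113945 to 216291 CPM (counts relative to the scaled library total) in queens and 132272 to 196478 CPM in consorts. On the first principal component over all libraries, with 26.4% of the variance, female breeder 6, male breeder 5 and male non-breeder 3 stood apart. MTRNR2L4, a humanin-like gene, took 8.40% and 8.24% of the counts in these breeders and 1.92% to 5.99% in the other breeders. By the study's list of libraries, all female breeders and male breeders 1 to 3 were sequenced with the shorter of 2 read lengths, and male breeders 4 to 6 with the longer one. All non-breeders had the longer one. Where sex differences of breeders and non-breeders are set side by side, read length is thus mixed in the first only. Within male breeders, the shorter against the longer read length gave 0 called genes and 170 (1.38%) with an unadjusted p under 0.05 (edgeR). Values against male breeders 1 to 3 alone are given where they bear on a result.

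The first question was how far the liver transcriptome of a queen differs from that of a consort. The groups were close: 6 of 12306 genes passed the threshold (adjusted p under 0.05, edgeR quasi-likelihood test), which is 0.0488% of the genes tested, 1 of them higher (0.00813%) and 5 lower (0.0406%) in queens. Without the genes of that list, 2 genes remained, FCN3 and ST6GALNAC3. At an unadjusted p under 0.05 there were 725 genes (5.89%), 405 higher (3.29%) and 320 lower (2.6%) in queens. For 43 genes (0.349%) the 6 queens and the 6 consorts did not overlap, 17 higher (0.138%) and 26 lower (0.211%) in queens. The pairwise Pearson correlation of log2 CPM across genes was 0.963 ± 0.0115 between a queen and a consort (SD, 36 pairs), 0.957 ± 0.0160 between queens (SD, 15 pairs) and 0.972 ± 0.00809 between consorts (SD, 15 pairs). A queen was thus about as near to a consort as to another queen.

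The precision of the comparison bounds how large an undetected difference can be. For 10193 genes (82.8%) the 95% interval of the fold change lay within 2-fold in either direction, and the median standard error was 0.21 on the log2 scale. Among the 1157 genes with a mean of at least 100 CPM this held for 1079 (93.3%). 1 of these abundant genes passed the threshold, EIF2S3, a gene of the human X chromosome. Smaller differences than these intervals allow in single genes could not be detected with these 12 animals.

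FCN3 encodes ficolin-3, a soluble lectin that in human is made in liver and lung and starts the lectin pathway of complement by binding sugars on microbes. Its level was 1.54, 1.81, 0.598, 1.22, 1.26 and 0.795 CPM in female breeders 1 to 6 and 2.44, 5.00, 2.91, 2.22, 2.6 and 3.51 CPM in male breeders 1 to 6. Every queen lay below every consort. The difference of queens minus consorts on the log2 scale was -1.36 ± 0.24 (SE, 95% interval -1.86 to -0.85, edgeR, adjusted p = 0.0361), or 2.56-fold higher in consorts. The counts behind the levels of queens were low, 9 to 29 per library. In bulk liver, fewer cells that make a transcript and less of it per cell cannot be told apart, here and in the results that follow. FCN3 is also a marker of liver sinusoidal endothelial cells in human. The list of endothelial markers had a summed level of 937 to 1210.5 CPM in queens and 881 to 1109.9 CPM in consorts. In it 19 of 27 markers (70.4%) were above 0, against 54.4% of all genes. The part of endothelial cells in the difference of FCN3 was not tested. MBL2, the mannose-binding lectin that starts the same pathway, had 135 to 259 CPM in female breeders (median 209.6) and 218 to 299 CPM in male breeders (median 267), a log2 difference of -0.34 ± 0.19 (SE, edgeR, adjusted p = 0.88).

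ST6GALNAC3 encodes a sialyltransferase that adds sialic acid to N-acetylgalactosamine on glycoproteins and on the glycolipid GM1b. It stood at 43.6, 28.1, 46.8, 44.2, 43.3 and 51.5 CPM in female breeders 1 to 6 and at 23.1, 24.6, 31.9, 22.6, 22.3 and 28.0 CPM in male breeders 1 to 6. Female breeder 2 was within the range of the consorts and the other 5 queens lay above it. The log2 difference was 0.76 ± 0.14 (SE, 95% interval 0.46 to 1.05, edgeR, adjusted p = 0.0446), or 1.69-fold higher in queens. The list of sialyltransferases and sialoglycoprotein receptors, which includes ST6GALNAC3, did not follow as a whole. In it 11 of 23 genes were above 0, the median was -0.02, and there was no second call. Of these, ST3GAL2, an enzyme that adds sialic acid to galactose, had 62.2 ± 92.7 against 21.04 ± 4.77 CPM (mean ± SD, n = 6 in each) and a log2 difference of 1.56 ± 0.55 (SE, edgeR, adjusted p = 0.723), and ST3GAL4 had one of -0.28 ± 0.19. The SD of ST3GAL2 in queens was larger than its mean, so its level was very uneven among them.

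The calls of both genes were near the threshold and depended on the libraries in the fit. Leaving out each of the 12 breeders in turn, FCN3 stayed between -1.51 and -1.17 and passed in 5 of 12 fits (edgeR, adjusted p from 0.0118 to 0.125), and ST6GALNAC3 stayed between 0.70 and 0.85 and passed in 2 of 12 (edgeR, adjusted p from 0.00364 to 0.188). The breeders without which FCN3 no longer passed were females 3, 4, 5 and 6 and males 2, 3 and 6, and for ST6GALNAC3 they were all except female 2 and male 3. Against male breeders 1 to 3 alone, which share the read length of the queens, the log2 differences were -1.50 and 0.69 (edgeR, adjusted p = 0.0827 and 1.00). With DESeq2 both genes passed (adjusted p = 0.000161 and 0.000623).

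In non-breeders the sex difference of FCN3 was -0.40 ± 0.25 and that of ST6GALNAC3 0.10 ± 0.15 (log2 difference ± SE). The sex difference of breeders minus that of non-breeders was -0.95 (95% interval -1.67 to -0.24, edgeR, unadjusted p = 0.0111) and 0.65 (95% interval 0.23 to 1.08, edgeR, unadjusted p = 0.00422), and neither passed over all genes. Over all 12306 genes, this difference was called for 0 genes with edgeR and with limma voom and for 1 gene with DESeq2, ANKRD1, a striated muscle gene, while 228 genes (1.85%) had an unadjusted p under 0.05 with edgeR. A sex difference particular to breeders was thus not shown for any gene by edgeR. Read length also enters these differences, since it was mixed in breeders and the same in all non-breeders.

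**Figure D1:**
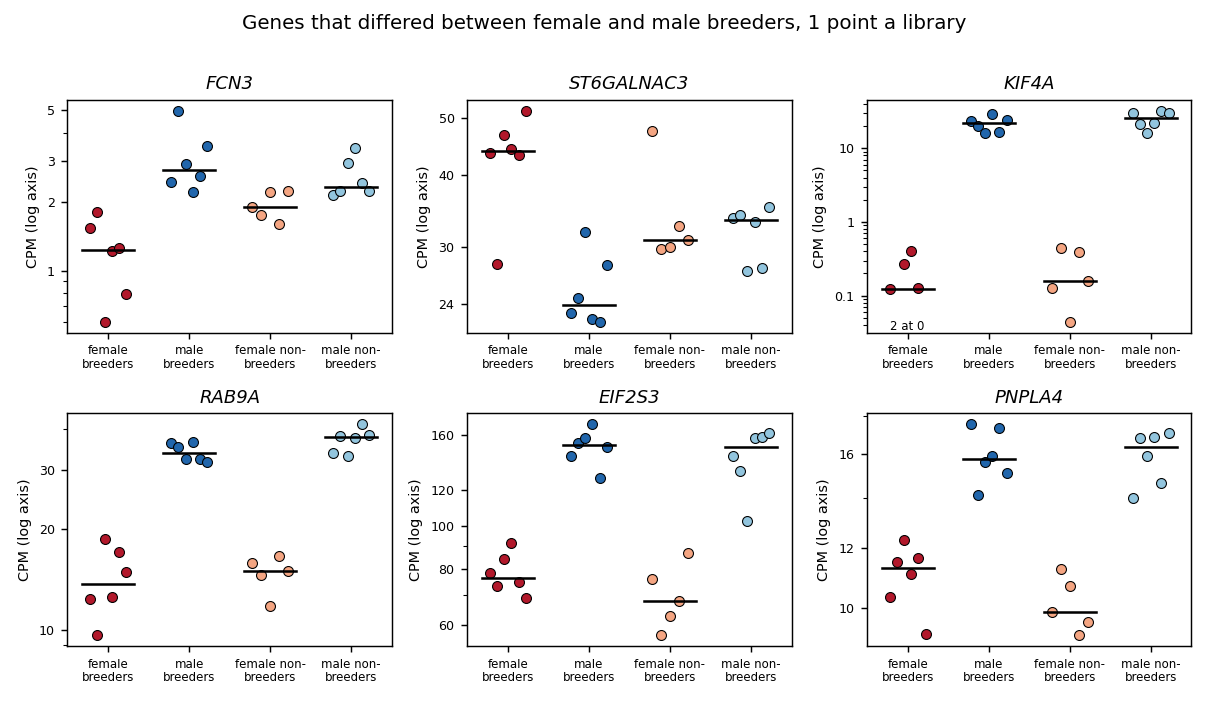
Level of the 6 genes that passed the threshold between female and male breeders, in CPM on a log axis, with 1 point for each library and a line at the group median; the 2 female breeders with no KIF4A count are written in place of points. FCN3 does not overlap between female and male breeders, in ST6GALNAC3 female breeder 2 lies within the range of the males, and the other 4 genes separate the sexes in breeders and in non-breeders.

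The other 4 genes are on the X chromosome in human and were lower in all 6 queens than in any consort. The largest difference was that of KIF4A, a kinesin of dividing cells, with 0 to 6 counts in each female breeder and 15.9 to 28.8 CPM in male breeders (log2 difference -7.05 ± 0.42, SE, edgeR, adjusted p = 2.24e-10). The list of mitotic genes as a whole did not share it: 25 of 31 tested genes of mitosis and the cell cycle, KIF4A being 1 of the 31, were above 0, with a median of 0.12. RAB9A, a GTPase of endosomes, had 9.63 to 18.7 CPM in female breeders (median 13.7) and 31.7 to 36.6 CPM in male breeders (median 33.9). EIF2S3, a subunit of translation initiation factor eIF2, had 68.8 to 91.6 CPM in female breeders (median 76.4) and 128 to 169 CPM in male breeders (median 152). PNPLA4, a lipid hydrolase, had 9.23 to 12.3 CPM in female breeders (median 11.3) and 14.1 to 17.5 CPM in male breeders (median 15.8). Leaving out each breeder in turn, KIF4A, RAB9A and EIF2S3 passed in 12 of 12 fits and PNPLA4 in 2, those without female breeder 3 or male breeder 2 (edgeR, adjusted p from 0.0386 to 0.168). The sex differences of breeders minus those of non-breeders lay between -0.24 for KIF4A and 0.12 for PNPLA4. KDM6A, a histone demethylase of the human X chromosome that escapes its inactivation, did not pass, with 20.7 against 13.8 CPM (medians of queens and consorts), and 0.58 ± 0.18 on the log2 scale (SE, edgeR, adjusted p = 0.588). Some mammals have copies of EIF2S3 and KDM6A on both sex chromosomes, and reads that mapped to several places were discarded, so the share of such copies in these levels is uncertain.

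Among the genes not in the list of human X genes, those of smallest p after the called genes had large differences that did not pass. The genes higher in queens are given first. FLRT2, a cell surface adhesion protein, had 0.503 to 1.91 CPM in female breeders (median 1.36) and 0.238 to 0.723 CPM in male breeders (median 0.367) and a log2 difference of 1.59 ± 0.35 (SE, edgeR, adjusted p = 0.20). LPL, lipoprotein lipase, which frees fatty acids from circulating triglycerides and is low in adult liver, had 3.25 to 9.27 CPM in female breeders (median 4.08) and 1.01 to 3.65 CPM in male breeders (median 1.43), with male breeder 4 inside the range of the queens. OXCT1, the mitochondrial enzyme that uses ketone bodies and is almost silent in hepatocytes of other mammals, had 1.64 to 4.06 CPM in female breeders (median 2.7) and 0.595 to 1.43 CPM in male breeders (median 1.15), and all queens were above all consorts. CPXM2, a carboxypeptidase-like protein, had medians of 5.08 against 2.61 CPM and SPINK2, a protease inhibitor, of 1.66 against 0.50 CPM. CEACAM20 had medians of 7.98 against 4.1 CPM, RCAN2, an inhibitor of calcineurin, of 1.01 against 0.312 CPM, and the lymphocyte signalling genes FYB and RASGRP1 of 2.17 against 1.17 CPM and 3.79 against 2.45 CPM. FYB also did not overlap between the groups. The consort medians of FLRT2, SPINK2 and RCAN2 were under 1 CPM and rest on few reads. Genes at such levels can pass the filter on low counts through a group in which they are higher.

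Lower in queens, the largest amount of RNA was that of DDT, D-dopachrome tautomerase, a cytokine related to macrophage migration inhibitory factor. It had 1032 to 1786 CPM in female breeders (median 1609) and 1881 to 2533 CPM in male breeders (median 2422), with no overlap, and a log2 difference of -0.60 ± 0.14 (SE, 95% interval -0.89 to -0.31, edgeR, adjusted p = 0.267). BCL2L10, a regulator of apoptosis, had 0.688 to 1.67 CPM in female breeders (median 1.17) and 2.15 to 3.61 CPM in male breeders (median 2.59), FN3K, which removes fructosamines from glycated proteins, had 11.4 to 17.2 CPM in female breeders (median 14.04) and 18.1 to 23.1 CPM in male breeders (median 21.7), and neither overlapped. CYS1 had medians of 8.47 against 13.7 CPM and MPZL2, a junction protein, of 6.13 against 8.96 CPM, also without overlap. SMIM19 had medians of 31.3 against 45.98 CPM, DNASE2, the lysosomal nuclease, of 106 against 164 CPM, TRPM6, a magnesium channel, of 38.8 against 55.8 CPM and GGT6 of 2.42 against 4.24 CPM. The adjusted p of these 9 genes lay between 0.138 for BCL2L10 and 0.437 for FN3K and TRPM6 (edgeR). With DESeq2, 24 genes were called, among them FLRT2, LPL, OXCT1, CPXM2, SPINK2, CEACAM20, BCL2L10, DDT, CYS1, MPZL2 and SMIM19. In non-breeders the log2 differences were -0.19 to 0.10 for the 9 genes that were higher and -0.72 to 0.00 for the 9 that were lower. These genes were picked for their small p in breeders, which enlarges their differences there.

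**Figure D2:**
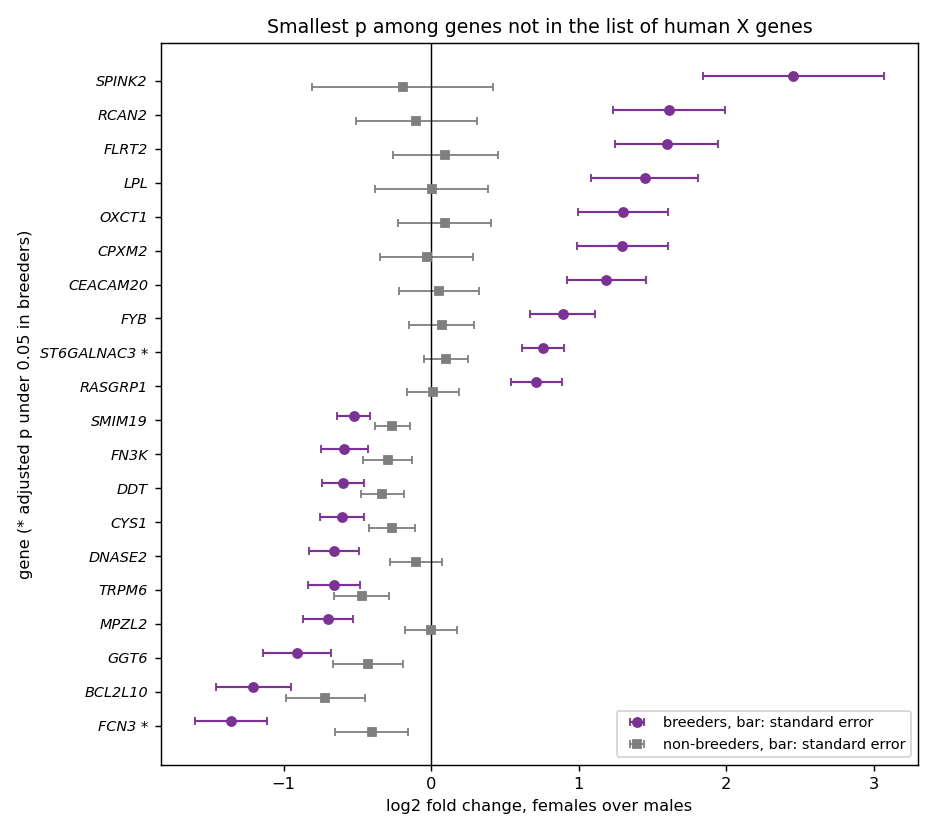
Log2 fold change of females over males for the 10 higher and the 10 lower genes of smallest p in breeders that are not in the list of human X genes, in breeders (circles) and non-breeders (squares), with standard errors. Stars mark FCN3 and ST6GALNAC3, the 2 genes past the threshold. In non-breeders the squares of the higher genes lie near 0.

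Proteins secreted into plasma were compared next, and apart from FCN3 none was called. Over all genes tested, 54.4% had a log2 difference above 0, 45.6% one below 0, and the median was 0.02, against which the counts of each list can be read. Of the carrier proteins of plasma, 8 of 22 were above 0 with a median of -0.04, and 20 had an interval within 2-fold. ALB, albumin, had 76313 to 165349 CPM in queens and 97317 to 145405 CPM in consorts (log2 difference -0.14 ± 0.20, 95% interval -0.55 to 0.26, SE, edgeR). TTR, transthyretin, the carrier of thyroid hormone and retinol-binding protein, was at 0.00 ± 0.22 and its sign changed with the libraries and the tool. AFP, the fetal albumin, had 3.9 to 17.4 CPM in female breeders (median 5.77) and 4.88 to 16.1 CPM in male breeders (median 9.9). HPX, the heme carrier hemopexin, had medians of 6384 against 4365 CPM. SERPINA6, corticosteroid-binding globulin, which carries cortisol in blood, had 13.8 to 46.5 CPM in female breeders (median 23.3) and 16.4 to 52.04 CPM in male breeders (median 46.1). Of the consorts, 5 lay between 42.8 and 52.0 CPM and male breeder 6 at 16.4 CPM, while 4 queens lay between 13.8 and 26.8 CPM and female breeders 4 and 5 at 46.5 and 43.4 CPM (log2 difference -0.60 ± 0.34, SE, edgeR, adjusted p = 0.883). The carrier of sex steroids, SHBG, had 37 counts over all 23 libraries and no more than 4 in any of them, so it did not pass the filter and its level could not be compared.

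Acute phase proteins, whose synthesis rises in inflammation, were above 0 for 13 of 18 with a median of 0.12. CRP, C-reactive protein, was the member of smallest p, with 337, 778, 558, 252, 581 and 396 CPM in female breeders 1 to 6 and 268, 191, 274, 282, 245 and 274 CPM in male breeders 1 to 6. Of the queens, 5 lay above all consorts and female breeder 4 within their range (log2 difference 0.92 ± 0.27, SE, 95% interval 0.36 to 1.48, edgeR, adjusted p = 0.541). SERPINA1, the protease inhibitor alpha-1-antitrypsin, had medians of 5545 against 6712 CPM. HAMP, the iron hormone hepcidin, ranged from 37.4 to 687 CPM in queens and from 79.5 to 528 CPM in consorts. In the median of the list, female breeder 2 was 0.81 above the mean of the 12 libraries (log2) and the other queens between -0.47 and 0.19, a range that held 4 of the 6 consorts. Female breeder 2 had also 123 CPM of SOCS3, the feedback inhibitor of cytokine signalling, against 1.5 to 6.43 CPM in consorts and 2.86 to 5.39 CPM in the other queens.

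Complement genes and lectins were above 0 for 23 of 34 (median 0.14) and coagulation and fibrinolysis genes for 16 of 30 (median 0.04), with 28 and 27 intervals within 2-fold. C6, a component of the membrane attack complex, had 155 ± 45.2 against 103 ± 27.1 CPM (mean ± SD, n = 6 in each, edgeR, adjusted p = 0.798). C4B, a component of the classical pathway, had medians of 1.67 against 1.33 CPM, with female breeder 2 at 13.7 CPM. PGLYRP2, a liver enzyme that cuts bacterial peptidoglycan, had 86.96 to 201 CPM in female breeders (median 160.3) and 167 to 279 CPM in male breeders (median 198) (log2 difference -0.42 ± 0.22, SE, edgeR, adjusted p = 0.864). PLAU, urokinase, had 10.1 to 25.1 CPM in female breeders (median 16.7) and 4.45 to 16.8 CPM in male breeders (median 8.05), and KNG1, kininogen, 2989 to 6692 CPM in female breeders (median 4432) and 4387 to 7182 CPM in male breeders (median 5884). The log2 difference of PLAU was 0.90 ± 0.26 (SE, edgeR, adjusted p = 0.486), with 3 queens above all consorts. AGT, angiotensinogen, the liver's estrogen-responsive source of angiotensin in human and rat, had medians of 2728 against 2916 CPM (log2 difference -0.18 ± 0.31, SE). Of the 20 estrogen-responsive liver proteins tested, 12 were above 0, the median was 0.02, and none had an unadjusted p under 0.05. The list is not split by the direction of the response to estrogen. Its count and median therefore cannot show whether such a response was present.

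Carbohydrate and amino acid metabolism differed little between queens and consorts. Of 35 genes of glycolysis, gluconeogenesis and glycogen, 17 were above 0, the median was -0.01, and 29 had an interval within 2-fold. PCK2, the mitochondrial phosphoenolpyruvate carboxykinase, which makes phosphoenolpyruvate for gluconeogenesis, stood out by p, with 349, 363, 451, 455, 623 and 287 CPM in female breeders 1 to 6 and 862, 643, 536, 982, 555 and 722 CPM in male breeders 1 to 6. All queens except female breeder 5 lay below every consort (log2 difference -0.77 ± 0.21, SE, 95% interval -1.20 to -0.33, edgeR, adjusted p = 0.437). In non-breeders it was -0.04, and the difference between these sex differences was -0.73 (edgeR, unadjusted p = 0.023, not passing over all genes). PCK1, the cytosolic enzyme induced by fasting, varied from 308 to 4547 CPM among queens and from 500.3 to 5292 CPM among consorts, and G6PC, which releases free glucose, from 292 to 746 and from 177 to 1231 CPM. Their standard errors were 0.62 and 0.48 on the log2 scale, too wide to bound a difference within 2-fold. PKM, the pyruvate kinase of non-hepatocyte cells, had medians of 21.3 against 16.8 CPM.

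Urea cycle and nitrogen genes were above 0 for 7 of 18 (median -0.07) and genes of amino acid catabolism for 17 of 53 (median -0.11), and no member was called. NAGS, which makes the activator of the urea cycle, had 34.2 to 78.3 CPM in female breeders (median 67.6) and 73.4 to 110.4 CPM in male breeders (median 87.8) (log2 difference -0.48 ± 0.19, SE, edgeR, adjusted p = 0.761). CPS1, the entry enzyme of the cycle, had 804 to 4466 CPM in female breeders (median 2904) and 761 to 2653 CPM in male breeders (median 2031) and overlapped between the sexes. RHBG, an ammonium transporter, had 61.5 ± 26.99 against 97.2 ± 21.8 CPM (mean ± SD, n = 6 in each). AMDHD1 and UROC1, consecutive enzymes of histidine breakdown, had log2 differences of -0.30 ± 0.13 and -0.35 ± 0.16, PRODH2, which breaks down hydroxyproline, of -0.92 ± 0.42, and BHMT, which remethylates homocysteine with betaine, of -0.39 ± 0.18 (SE). These were the 4 genes of the list (7.55%) with an unadjusted p under 0.05, and all were below 0. Of all genes, 5.89% had such a p in either direction and 2.6% had such a p and were lower in queens.

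Lipid metabolism had the 2 lists with the lowest medians of the liver functions, again with no gene called. Genes of cholesterol synthesis and uptake were below 0 for 22 of 28 with a median of -0.24, against 45.6% of all genes below 0. Male breeder 4 was 0.77 above the mean of the 12 libraries in the median of this list (log2), and the other consorts lay between -0.21 and 0.19 and the queens between -0.21 and 0.05, with 1 queen just below all consorts. The median of the list was -0.10 against male breeders 1 to 3, -0.29 without the libraries that stood apart and -0.29 in non-breeders. PMVK, phosphomevalonate kinase, had 31.8 to 52.01 CPM in female breeders (median 43.3) and 44.9 to 61.7 CPM in male breeders (median 57.96) (log2 difference -0.38 ± 0.12, SE, 95% interval -0.64 to -0.12, edgeR, adjusted p = 0.684). INSIG2, which retains the sterol sensor in the endoplasmic reticulum, had a log2 difference of 0.31 ± 0.27 (SE).

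Apolipoproteins and other genes of lipid transport were below 0 for 20 of 24 (median -0.21, -0.25 against male breeders 1 to 3 and -0.29 without the libraries that stood apart). In non-breeders the median was 0.01. In the median of this list, 4 of 6 queens lay below every consort. APOC4, a minor protein of very low density lipoprotein, did not overlap, with 77.1 to 109 CPM in female breeders (median 92.5) and 111 to 144 CPM in male breeders (median 132) (log2 difference -0.48 ± 0.15, SE, 95% interval -0.78 to -0.17, edgeR, adjusted p = 0.588), and its difference in non-breeders was -0.63. APOC2, the activator of lipoprotein lipase, had 2063 ± 389 against 2621 ± 259 CPM (mean ± SD, n = 6 in each). APOA2, a protein of high density lipoprotein, went the other way, with 35.6 to 571 CPM in female breeders (median 177) and 39.6 to 172 CPM in male breeders (median 100.04) and a log2 difference of 1.12 ± 0.54 (SE, edgeR, adjusted p = 0.842). APOA4, a lipid-binding protein of gut and liver, had 12.8 to 130.3 CPM in female breeders (median 86.9) and 68.7 to 183 CPM in male breeders (median 117), with female breeder 6 the lowest.

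Of the genes of fatty acid oxidation and ketogenesis, 25 of 33 were below 0 (median -0.11, and 0.05 in non-breeders), and 29 had an interval within 2-fold. HADH, which oxidises short 3-hydroxyacyl-CoA, had 359 to 517 CPM in female breeders (median 405) and 454 to 563 CPM in male breeders (median 524) (log2 difference -0.30 ± 0.11, SE, edgeR, adjusted p = 0.732). ECI2, an isomerase of unsaturated fatty acids, was at 0.11 ± 0.16. Genes of fatty acid and triglyceride synthesis were below 0 for 18 of 30 (median -0.06). DGAT2, which completes triglycerides, had 230.1 to 563 CPM in female breeders (median 344) and 300.3 to 719.7 CPM in male breeders (median 504) (log2 difference -0.50 ± 0.23, SE), ME1, a source of NADPH for lipid synthesis, 48.9 to 124 CPM in female breeders (median 85.9) and 30.4 to 70.7 CPM in male breeders (median 36.2) (0.98 ± 0.53), and FASN, fatty acid synthase, 434 to 1465 CPM in female breeders (median 1033) and 461 to 1905 CPM in male breeders (median 1164) (-0.19 ± 0.31).

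**Figure D3:**
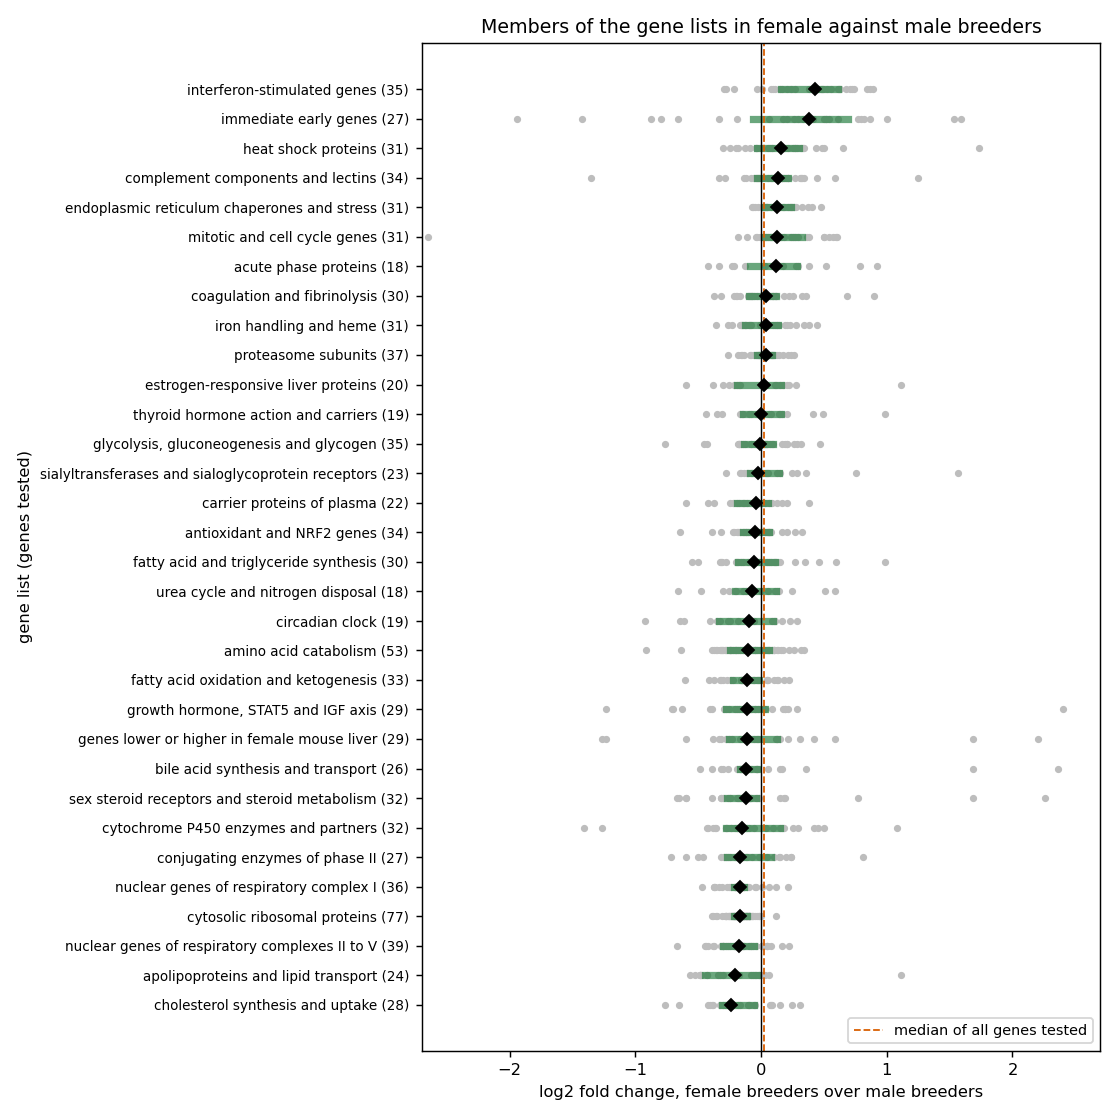
Log2 fold change of female over male breeders for each member (grey points) of the lists of liver functions, endocrine axes, stress responses and housekeeping genes, with the quartiles (green bar) and the median (diamond) of each list and the number of genes tested. The dashed line is the median of all genes at 0.02, and KIF4A at -7.05 is drawn at the left edge. Medians lie between -0.24 for cholesterol synthesis and uptake and 0.43 for interferon-stimulated genes.

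Bile acid and detoxification genes likewise held no call. Of the bile acid genes 20 of 26 were below 0 (median -0.12), of the cytochrome P450 enzymes and their partners 21 of 32 (median -0.15), and of the conjugating enzymes 19 of 27 (median -0.17). CYP7A1, which starts the main route of bile acid synthesis, had 37.6 to 189 CPM in female breeders (median 94.3) and 43.7 to 189.9 CPM in male breeders (median 109), and CYP27A1, which starts the other route, 1047 to 1415 CPM in female breeders (median 1169) and 1275 to 1972 CPM in male breeders (median 1666) (log2 differences -0.16 ± 0.56 and -0.39 ± 0.16, SE, edgeR, adjusted p = 0.987 and 0.743). SLC51A, a subunit of the basolateral bile acid exporter, had 50.9, 16.9 and 66.5 CPM in female breeders 3, 5 and 6 and 1.65 to 10.1 CPM in all other breeders, so that only some of the queens stood above the consorts. SLCO1A2, an uptake carrier, had 4.33 ± 5.84 against 1.33 ± 0.555 CPM (mean ± SD, n = 6 in each). CYP26A1, which degrades retinoic acid, had 5.59 to 20.7 CPM in female breeders (median 11.8) and 5.77 to 85.4 CPM in male breeders (median 22.8), with male breeder 5 at 85.4 CPM. CYP4B1 had medians of 23.7 against 16.8 CPM. SULT2A1, which sulfates steroids and bile acids, had 165 to 310.1 CPM in female breeders (median 256) and 192 to 500.4 CPM in male breeders (median 377) (log2 difference -0.60 ± 0.21, SE, edgeR, adjusted p = 0.723), GSTA3, a glutathione transferase, had 326 ± 84.9 against 461 ± 66.7 CPM (mean ± SD, n = 6 in each), and SULT1C2 medians of 91.2 against 44.2 CPM. AGXT2, an aminotransferase that clears methylated arginine, had a log2 difference of 0.22 ± 0.15 (SE).

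CYP2E1, which oxidises ethanol and ketones, was, MTRNR2L genes aside, the most variable of the genes with a mean of at least 100 CPM, among queens and among consorts. It stood at 150, 845, 143, 99.5, 14.3 and 0.636 CPM in female breeders 1 to 6 and at 8.14, 143, 2459, 371, 23.8 and 10.4 CPM in male breeders 1 to 6. The SD of its log2 level was 3.53 in queens and 3.24 in consorts, and no sex difference could be read from it (log2 difference -1.27 ± 1.51, SE, 95% interval -4.39 to 1.86). HNMT, which inactivates histamine, and the metallothionein MT1X also varied more than 10-fold within each sex. HNMT ranged from 13.1 to 376 CPM in queens and from 19.2 to 369 CPM in consorts, and MT1X from 21.3 to 1614 and from 62.0 to 1419 CPM. Iron genes were above 0 for 17 of 31 (median 0.04), with ALAD, of heme synthesis, at -0.36 ± 0.15. Antioxidant genes were above 0 for 13 of 34 (median -0.05), with SOD1, the cytosolic superoxide dismutase, at -0.39 ± 0.15 (log2 difference ± SE, edgeR, adjusted p = 0.732).

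The endocrine axes that set hepatic sex differences in mice and rats were taken next. Of 32 genes of sex steroid receptors and steroid metabolism, 26 were below 0 (median -0.12) and none was called. An unadjusted p under 0.05 was found for 7 (21.9%), 3 higher and 4 lower in queens, against 5.89% of all genes. This share varied between lists, with 17.1% of interferon-stimulated genes, 15.4% of bile acid genes and 0% of thyroid genes, so it does not single out the steroid genes. ESR1, the estrogen receptor alpha, had 3.07, 12.4, 6.38, 5.75, 2.71 and 59.0 CPM in female breeders 1 to 6 and 1.66, 2.6, 3.42, 2.54, 2.02 and 6.19 CPM in male breeders 1 to 6. The log2 difference was 2.26 ± 0.77 (SE, 95% interval 0.67 to 3.85, edgeR, adjusted p = 0.703), and it was 0.88 without the libraries that stood apart, of which female breeder 6 is one. HSD17B1, which makes estradiol from estrone, had 3.99 to 11.7 CPM in female breeders (median 8.54) and 10.8 to 14.6 CPM in male breeders (median 12.5), with 5 queens below all consorts (log2 difference -0.67 ± 0.23, SE, edgeR, adjusted p = 0.696). SRD5A1, the steroid reductase that makes dihydrotestosterone, had 36.8 ± 4.83 against 48.1 ± 7.2 CPM (mean ± SD, n = 6 in each), and AKR1C4, a liver hydroxysteroid dehydrogenase, had a log2 difference of -0.32 ± 0.14. HSD17B2, which inactivates estradiol, and SRD5A3 were at low levels, 0.651 ± 0.286 against 0.193 ± 0.0769 CPM and 1.75 ± 0.665 against 1.02 ± 0.366 CPM (mean ± SD, n = 6 in each). HSD11B1, which regenerates cortisol, had medians of 1119 against 1465 CPM (log2 difference -0.32 ± 0.17, SE). SULT1E1, the estrogen sulfotransferase, had 3 counts over all libraries and did not pass the filter.

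Genes of growth hormone signalling were below 0 for 20 of 29 (median -0.11), and no member was called. STAT5B had 11.98 to 16.8 CPM in female breeders (median 14.1) and 14.5 to 16.6 CPM in male breeders (median 15.5), BCL6, a repressor higher in male mouse liver, 43.4 to 61.5 CPM in female breeders (median 48.5) and 37.9 to 69.3 CPM in male breeders (median 57.3), and CUX2, a factor nearly specific to female mouse liver, 8.59 to 70.8 CPM in female breeders (median 45.9) and 17.7 to 73.00 CPM in male breeders (median 53.1). Their log2 differences were -0.11 ± 0.14, -0.14 ± 0.16 and -0.28 ± 0.45 (SE), and the 95% intervals for STAT5B and BCL6, -0.39 to 0.17 and -0.47 to 0.20, left no room for a 2-fold difference. IGF1, the growth factor that liver releases under growth hormone, had 295 to 477 CPM in female breeders (median 335) and 219.9 to 372 CPM in male breeders (median 324) (log2 difference 0.18 ± 0.24, SE, 95% interval -0.32 to 0.68). IGF2 had 658 to 1066 CPM in female breeders (median 828.8) and 997 to 1338 CPM in male breeders (median 1117) (log2 difference -0.39 ± 0.16, SE, edgeR, adjusted p = 0.76), and its sex difference in non-breeders was -0.35. SOCS3 had a log2 difference of 2.40 ± 0.93 that rested on female breeder 2, without which it was -0.21. The receptors GHR and PRLR were not analysed here.

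Of the genes listed as different between female and male mouse liver, in either direction, 10 of 29 were above 0, the median was -0.11, and none was called. The list pools both directions, so its count and median cannot show whether the mouse directions were followed. GADD45G, a stress-induced gene, had 5.40, 36.9, 8.18, 12.4, 3.90 and 33.6 CPM in female breeders 1 to 6 and 3.10, 4.52, 6.11, 0.913, 5.20 and 1.96 CPM in male breeders 1 to 6, with 4 queens above every consort (log2 difference 2.20 ± 0.68, SE, edgeR, adjusted p = 0.588). Thyroid genes were above 0 for 10 of 19 (median 0.00), with RXRG, a partner of nuclear receptors, at -0.35 ± 0.26. HNF4A, the factor that keeps hepatocytes differentiated, had 157 to 547 CPM in female breeders (median 228) and 129.9 to 418 CPM in male breeders (median 299), and the sign of its log2 difference of -0.05 ± 0.30 (SE) changed when single libraries were left out.

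**Figure D4:**
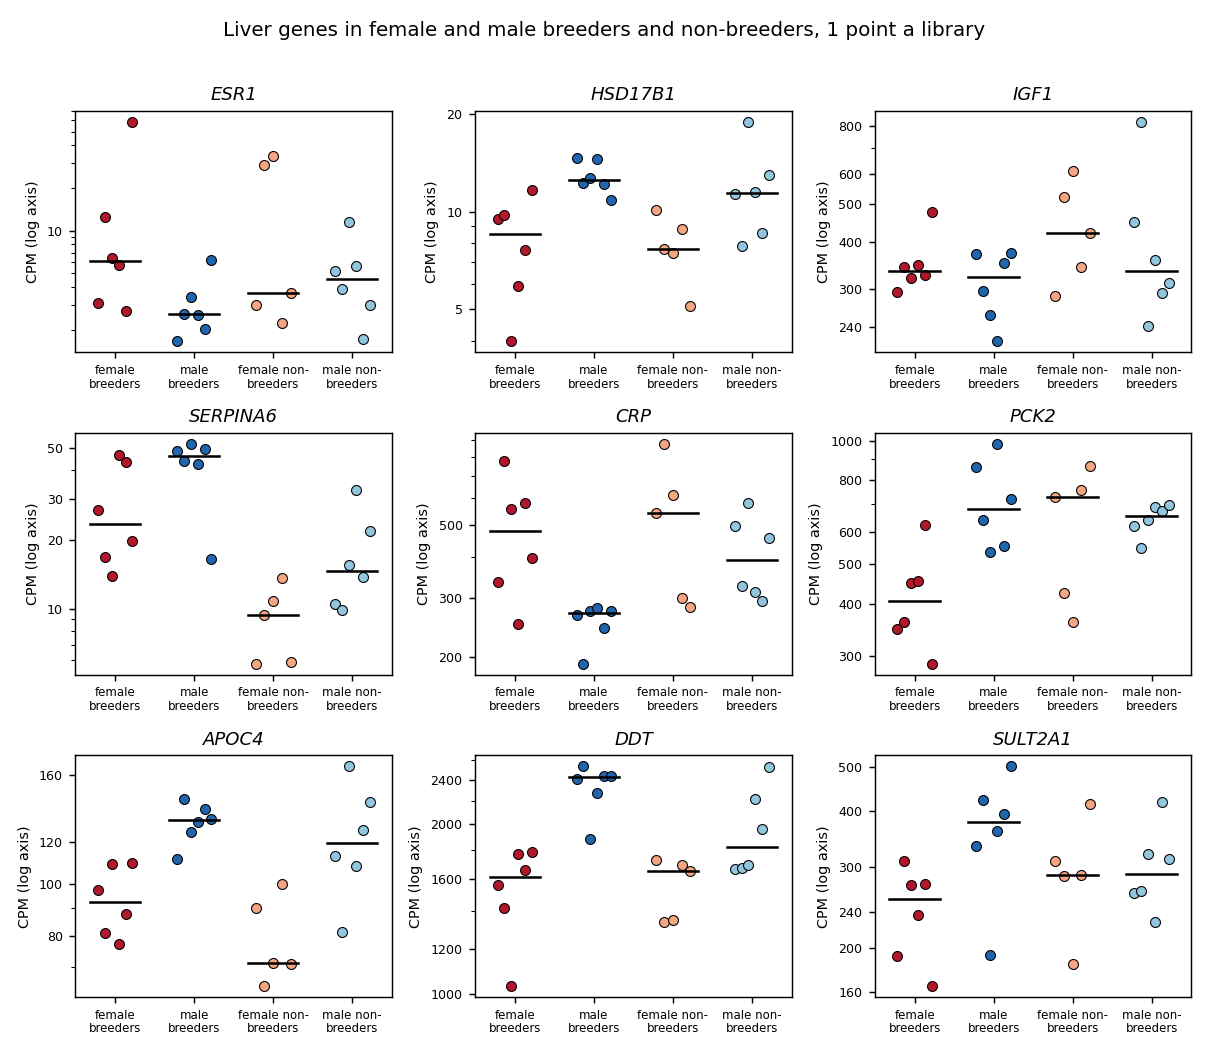
Level of 9 genes of hormone action, plasma proteins and metabolism in CPM on a log axis, with 1 point for each library and a line at the group median. APOC4 and DDT do not overlap between female and male breeders, PCK2, CRP and HSD17B1 overlap through 1 female breeder each, and the other 4 genes overlap through several libraries. None of the 9 genes passed the threshold.

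Interferon-stimulated genes had the highest median of the lists, 0.43, with 31 of 35 above 0 against 54.4% of all genes and none called. Against male breeders 1 to 3 the median was 0.24, and in non-breeders it was 0.14. By library, the median of the list lay -0.05 to 0.67 from the 12-library mean in queens and -0.87 to 0.51 in consorts (log2), with male breeder 6 the lowest and female breeder 1 the only library above all consorts. PARP14, an interferon-induced ADP-ribosyltransferase, had 62.6 to 98.1 CPM in female breeders (median 79.9) and 38.1 to 78.3 CPM in male breeders (median 57.7) (log2 difference 0.44 ± 0.15, SE, edgeR, adjusted p = 0.723). IFIT2, which blocks translation of viral RNA, had 25.5 ± 10.9 against 14.2 ± 7.57 CPM (mean ± SD, n = 6 in each), and BST2, which tethers virus particles, medians of 151 against 182 CPM.

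Immediate early genes, transcription factors that respond within minutes to stress and handling, were above 0 for 20 of 27 with a median of 0.38, and 3 of them had an interval within 2-fold. EGR1 ranged from 15.04 to 696 CPM in queens and from 31.5 to 463 CPM in consorts, KLF6 had medians of 13.9 against 7.85 CPM and SGK1 of 53.6 against 116 CPM. By library the medians of the list ranged over both sexes, -0.98 to 0.86 in queens and -1.33 to 0.78 in consorts (log2). Chaperones and stress genes of the endoplasmic reticulum were above 0 for 27 of 31 (median 0.13) and heat shock proteins for 21 of 31 (median 0.16). Of these, EIF2AK3, the stress kinase PERK, was at 0.32 ± 0.17, HSPA13 at 0.48 ± 0.25, HSPA12A at -0.25 ± 0.17 and DNAJB11 at -0.06 ± 0.17 (log2 difference ± SE). Clock genes were below 0 for 13 of 19 (median -0.10). NR1D1, the repressor REV-ERB alpha whose level swings over the day, had 7.99 to 56.01 CPM in female breeders (median 19.1) and 28.5 to 70.97 CPM in male breeders (median 47.5) (log2 difference -0.93 ± 0.38, SE, edgeR, adjusted p = 0.76), and CSNK1D, a clock kinase, was at 0.16 ± 0.13. The hour at which each animal was sampled is not in the labels.

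Genes of cytosolic ribosomes and of the respiratory chain had small differences, most of them below 0. Cytosolic ribosomal protein genes were below 0 for 75 of 77 (median -0.17), nuclear genes of respiratory complex I for 32 of 36 (median -0.17) and those of complexes II to V for 30 of 39 (median -0.18). All 77 ribosomal protein genes and all 36 complex I genes had an interval within 2-fold. The genes of such a list are not independent of each other. By library, the median of the ribosomal genes lay -0.37 to 0.31 from the 12-library mean in queens and -0.11 to 0.33 in consorts (log2), with female breeder 6 among the highest. Against male breeders 1 to 3 the medians of the lists were -0.08, -0.08 and -0.06, and in non-breeders -0.30, -0.26 and -0.29. Proteasome subunits had a median of 0.04, with 22 of 37 above 0.

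Markers of cells other than hepatocytes had medians above 0 in several lists, none with a call other than FCN3. Stellate cell and fibroblast markers were above 0 for 23 of 25 (median 0.38), with a summed level of 545 to 903 CPM in queens and 535 to 630.3 CPM in consorts, 0 of 25 markers at 0 throughout. DCN, the matrix proteoglycan decorin, had 11.6 ± 3.97 against 5.44 ± 1.67 CPM, COL1A2, a chain of collagen I, 37.6 ± 20.1 against 19.7 ± 3.81 CPM and COL3A1, collagen III, 59.9 ± 32.5 against 35.7 ± 6.86 CPM (mean ± SD, n = 6 in each, log2 differences 1.10 ± 0.31, 0.93 ± 0.32 and 0.75 ± 0.28, SE, edgeR, adjusted p = 0.486, 0.723 and 0.732). Macrophage and Kupffer cell markers were above 0 for 18 of 19 (median 0.27, summed level 517 to 1012 CPM against 519 to 903 CPM) and neutrophil markers for 12 of 13 (median 0.28, 61.8 to 139 against 55.3 to 119 CPM). Against male breeders 1 to 3 the medians were 0.46 for stellate cell and fibroblast, 0.17 for macrophage and 0.10 for neutrophil markers, and in non-breeders they were -0.05, -0.09 and -0.17. In the summed level of stellate cell and fibroblast markers 4 of 6 queens lay above every consort, while the macrophage and neutrophil sums overlapped more widely. Lymphocyte markers were above 0 for 9 of 12 (median 0.15), but 14 of 19 were under 1 CPM on average. Their summed level was 111 to 619 CPM in queens (median 290) and 182 to 635 CPM in consorts (median 305). Hepatocyte markers were above 0 for 4 of 11 (median -0.05). The part of these cells in the matrix, interferon and lymphocyte signalling genes described above was not tested.

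Striated muscle markers summed to 246 and 222 CPM in female breeders 2 and 6 and to 37.6 to 78.1 CPM in the other 10 breeders, with 11 of 27 markers under 1 CPM on average. CKM, muscle creatine kinase, had 1.4 ± 1.66 against 0.31 ± 0.164 CPM (mean ± SD, n = 6 in each), and the median of the list went from 0.35 to 0.07 without the libraries that stood apart. The part of these libraries in the DESeq2 calls of the muscle genes ACTC1, MYL2 and ANKRD1 was not tested. Erythroid markers summed to 168 to 889 CPM in queens and 169 to 802 CPM in consorts, and markers of exocrine pancreas to at most 2.67 CPM in any breeder.

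**Figure D5:**
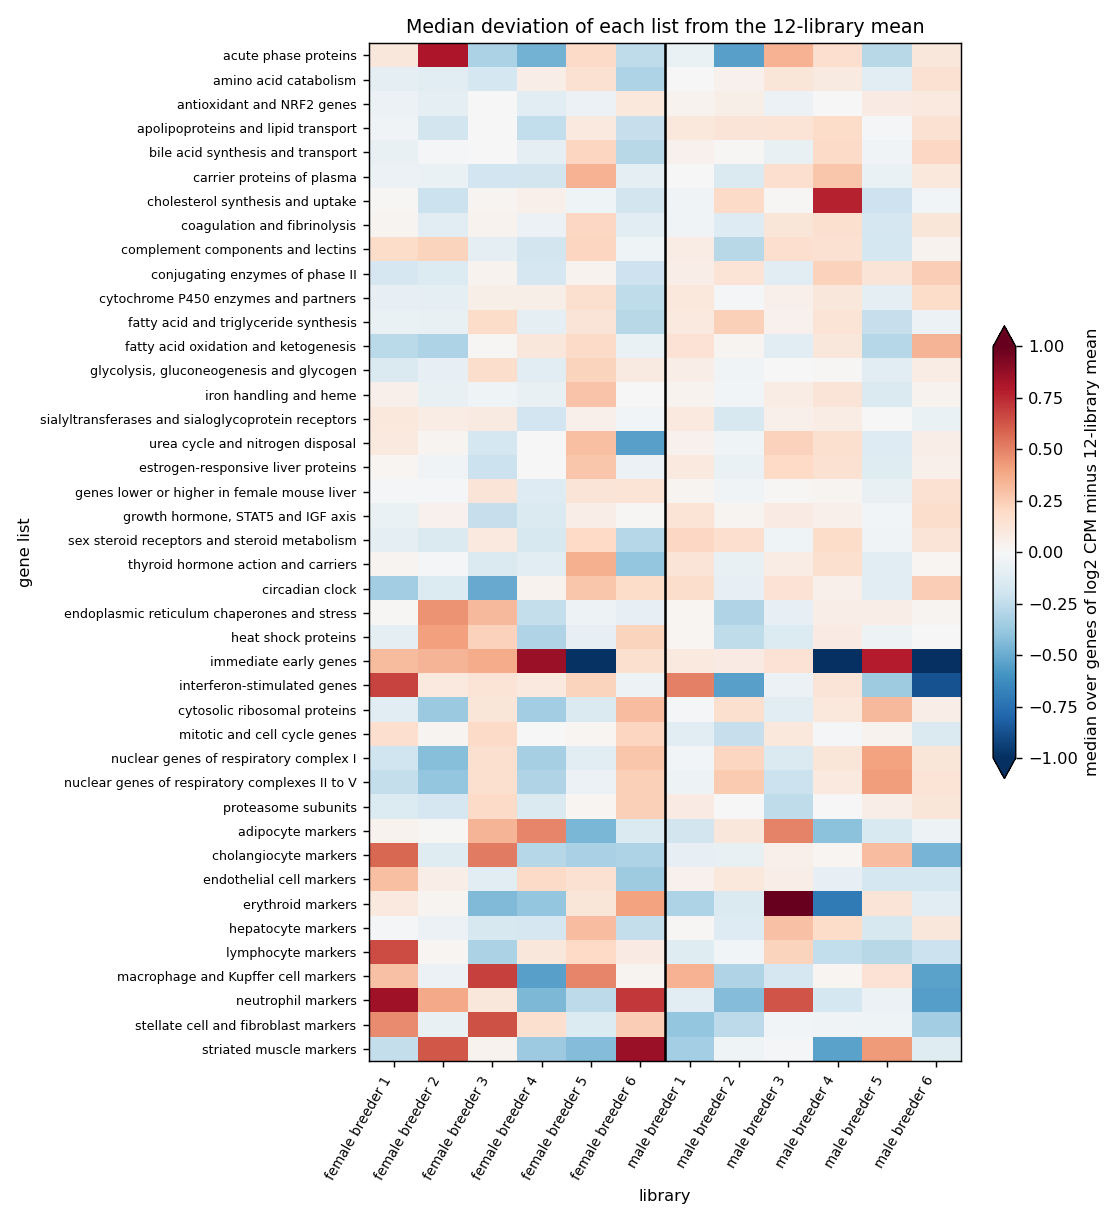
Median over the members of each list of the log2 CPM minus the mean of the 12 breeder libraries, with female breeders left of the line and male breeders right of it; red is above and blue below the mean, and values beyond -1 and 1 take the end colours. In several lists a single library lies apart from the others of its sex, as for acute phase proteins in female breeder 2 and cholesterol synthesis and uptake in male breeder 4.

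The spread among animals of a sex was described as well. Of 12306 genes, 8374 (68%) had a larger SD of log2 CPM among queens than among consorts, with median SDs of 0.36 and 0.29. Without female breeder 6 and male breeder 5 the share was 63.1%, with medians of 0.30 and 0.25. Genes are not independent of each other and the library totals of queens were on average the lower ones, so this is a description of these 12 libraries. The genes of this level that varied most among queens were, besides CYP2E1, MT1X, EGR1 and HNMT, the sulfotransferase SULT1C3, from 16.5 to 444 CPM, and the glucuronosyltransferase UGT1A7, from 8.51 to 172 CPM, with female breeder 6 the lowest in both. Among consorts they included TRPV6, a calcium channel, from 12.6 to 476 CPM.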

How the data were processed

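RNA-seq was run on the liver of 23 NMRs. Libraries were made by the authors from poly(A) RNA, without strand information, and read from a single end. Alignment was with STAR (2.4.1d in the submitters' processing notes), multi-mapped reads were dropped, and HTSeq gave counts per gene on an NMR transcript catalogue. The deposited values are raw counts, with no normalization. Antisense and near-identical genes are therefore uncertain. Of 16339 rows, 803 had no count, and 25 carried a date in place of a symbol. These date rows, with 0.143% ± 0.0134 (SD, n = 23) of each library's counts, were tested but are not named. 0 columns were left unused.

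Samples were grouped by the sex and status in their titles, and numbered in accession order, which pairs none. The tests used edgeR 4.0.16 under R 4.3.3: filterByExpr (minimum count 10, minimum total 15), TMM scaling, 1 mean per group over all 23 libraries, robust quasi-likelihood F-test, two-sided, Benjamini-Hochberg adjustment over 12306 genes, threshold 0.05. Log2 CPM used a prior count of 2. Each SE was obtained by dividing the log2 difference by √F. The fit was tested on simulated data. The members, gene lists (written from human and mouse knowledge), human X genes and alternatives were chosen with earlier results of these data known. The lists are described by counts and medians, without a test.

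Named genes were those past the threshold, the 10 higher and 10 lower of smallest p not in the list of human X genes, in each list of liver, endocrine or stress genes the member of smallest p in each direction with at least 1 CPM on average, and a fixed set of textbook genes. Members named beyond this rule were chosen after their values were seen, as having an unadjusted p under 0.05 or a large spread. FCN2, GHR and PRLR were not analysed here, and a few other genes of the rule and lists are not reported here singly. Alternatives were the size factors of DESeq2, no filter, DESeq2 1.42.0, limma 3.58.1 voom, only the 12 libraries compared, age or read length as a term, a threshold of 0.01 (the level the study used) and leaving out each library. Leaving out the 3 libraries that stood apart was chosen after seeing the data. No sequence or coordinate is given, because the only reference table used is of a different assembly.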

Additional observations from a re-analysis of the deposited data

Results flagged for a closer look

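In 180 groups of values (90 named genes in queens and in consorts), 18 had a library far from the other 5 of its group. For normally distributed values, about 1 in 20 groups would be flagged so. CPM values need not be normal, and many of the genes were picked for their small p. The 18 groups therefore cannot be set against that rate. Values are CPM, with that of the nearest library of the same group in parentheses.

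Female breeder 2 held 123 (5.39) for SOCS3, 845 (150.5) for CYP2E1, 687 (249) for HAMP and 13.7 (2.94) for C4B, and was the lowest queen for ST6GALNAC3 at 28.1 (43.3). Female breeder 6, which stood apart on the first principal component, held 59.0 (12.4) for ESR1, 477 (348) for IGF1 and 264 (172) for BST2. Female breeder 1 held 8.84 (2.06) for SPINK2 and 9.27 (4.65) for LPL, and female breeder 5 had 17.4 (7.31) for AFP. Among consorts, male breeder 3 held 2459 (371) for CYP2E1 and was the lowest for PMVK at 44.9 (56.6). Male breeder 1 had 356 (218) for BST2, male breeder 2 had 2.87 (1.67) for C4B, male breeder 4 had 3.65 (1.83) for LPL and male breeder 5 had 85.4 (33.5) for CYP26A1. Male breeder 6 was the lowest for SERPINA6 at 16.4 (42.8).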

How the results depend on the processing

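KIF4A, RAB9A and EIF2S3 passed in every fit run. The count of 6 called genes became 3 with only the 12 libraries, with read length as a term, without the 3 libraries that stood apart and at a threshold of 0.01, and 24 with DESeq2. It was 6 with the size factors of DESeq2 or with age, 5 with limma voom and 4 without the filter. Leaving out 1 breeder gave 3 to 5 genes, with 3 without female breeder 4, 5 or 6 or male breeder 6. Leaving out female non-breeder 3 or 5 or male non-breeder 2, 5 or 6 also gave 3. Non-breeders do not enter the means of the breeders, but they enter the shared spread, the filter, the scaling and the adjustment. The fits with fewer libraries have fewer samples, and otherwise the cause was not tested. The difference of sex differences gave 0 genes in all fits except DESeq2, with 1.

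Some log2 values near 0 changed sign. With read length as a term they were 0.19 for CYP7A1, 0.11 for DNAJB11, -0.091 for ECI2 and 0.31 for HAMP. TTR was at -0.12 with limma voom, -0.0044 without the filter and -0.17 without the libraries that stood apart. Leaving out 1 breeder gave -2.62 to 0.91 for CYP2E1, -0.45 to 0.053 for CYP7A1, -0.17 to 0.030 for DNAJB11, -0.35 to 0.011 for FASN, -0.31 to 0.31 for G6PC, -0.82 to 0.0017 for HAMP, -0.34 to 0.075 for HNF4A, -0.21 to 2.63 for SOCS3 and -0.20 to 0.10 for TTR. Of 198 list medians outside leave-one-out, 2 moved by more than the spread between libraries, both with read length as a term (-0.01 for the mouse list and 0.09 for sialyltransferases).

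No paired analysis was possible because the labels number animals, not pairs, and which queen lived with which consort is not in them. Library totals of 11826665 to 17729410 counts leave genes under about 1 CPM on few reads, as for FCN3.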
